A study of Mus musculus with 10 samples.

Results

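Toll-like receptors and the proteins that help them sense microbes are represented here by 6 genes, followed in mouse embryonic fibroblasts (MEFs, connective tissue cells grown out of embryos) given interferon-β (IFN-β), a secreted antiviral cytokine. They are the receptor genes Tlr2, Tlr3 and Tlr4, the co-receptor gene Cd14, the chaperone gene Unc93b1 and the adaptor gene Myd88. They were found by symbol in the deposited table, taking for each symbol the transcript row with the highest mean level, and make up 6 of 23370 symbols. All 6 passed the filter for testing, which 12168 genes did. Total RNA was sequenced in 10 libraries, 1 for each arm and time. In the pretreated arm, which the column names mark as cells with an earlier interferon exposure, and in the naive arm, cells were sampled at 0, 1, 2, 4 and 6 h. Both arms share the C57BL/6 background and the H3.3b-HA knock-in, in which an HA-tagged H3.3 cDNA takes the place of the H3f3b locus. Treatment is stated as 100 U per ml of IFN-β. The sources used here do not say how long or at what dose the pretreatment was given, or whether it was washed out. Each hour was taken as time since IFN-β was added. No unstimulated library at 1 to 6 h was analysed here, so a change from 0 h cannot be told apart from time in culture.

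Toll-like receptors are membrane proteins that bind microbial molecules. TLR2 and TLR4 act at the cell surface, on bacterial lipoproteins and on lipopolysaccharide, and CD14 hands such ligands to them. TLR3 binds double-stranded RNA inside endosomes, and UNC93B1 carries TLR3 and the other nucleic acid receptors from the endoplasmic reticulum to that compartment. MyD88 couples most receptors of the family, and the interleukin-1 receptor family, to NF-κB. TLR3 instead signals through the adaptor TRIF, the product of Ticam1, and TLR4 uses both adaptors.

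At 1 h 2 of the 6 genes, Tlr3 and Myd88, were at 2-fold or more above 0 h in both arms. Of all genes, 1.31% were so in pretreated and 2.02% in naive cells. Tlr2 passed 2-fold later, and promoters are shown for these 3. Of the other members, Tlr4 and Unc93b1 had no entry in the RefSeq table (GRCm38.p6). Cd14, which did not pass as rising in the test below, was left out of the search by choice. Matches in their promoters are therefore not known, and no promoter of a member without a rise is shown. Each promoter shown has 300 bases, from 250 before to 50 after the listed start, written 5′ to 3′ on the gene's strand. The listed start of Tlr3 lay 159 bases downstream of the start of the counted transcript. That of Myd88 lay 22 bases downstream, and for Tlr2 both starts were the same. All 3 lie on the minus strand, at chr9:119339969-119340268 for Myd88, chr8:45410331-45410630 for Tlr3 and chr3:83841559-83841858 for Tlr2. Capitals mark matches, on either strand, to 4 patterns.
Myd88: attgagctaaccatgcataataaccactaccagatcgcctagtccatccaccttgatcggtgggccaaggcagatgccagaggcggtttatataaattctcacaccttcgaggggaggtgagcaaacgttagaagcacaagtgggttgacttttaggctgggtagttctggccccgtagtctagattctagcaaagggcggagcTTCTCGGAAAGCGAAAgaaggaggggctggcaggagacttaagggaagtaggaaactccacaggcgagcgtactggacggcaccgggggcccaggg
Tlr3: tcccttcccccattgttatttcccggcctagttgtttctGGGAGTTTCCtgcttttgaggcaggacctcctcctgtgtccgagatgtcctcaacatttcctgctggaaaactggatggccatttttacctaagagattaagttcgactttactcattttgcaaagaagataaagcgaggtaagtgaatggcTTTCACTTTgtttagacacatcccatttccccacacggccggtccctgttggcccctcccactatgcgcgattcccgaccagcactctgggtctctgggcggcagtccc
Tlr2: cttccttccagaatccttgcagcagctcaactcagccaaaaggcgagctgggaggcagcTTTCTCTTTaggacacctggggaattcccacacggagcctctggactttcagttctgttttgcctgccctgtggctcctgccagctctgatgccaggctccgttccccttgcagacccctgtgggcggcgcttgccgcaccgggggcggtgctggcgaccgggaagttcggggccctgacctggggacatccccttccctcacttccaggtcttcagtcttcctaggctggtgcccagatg
The Myd88 promoter held the core of the interferon-stimulated response element (GAAA, any 2 bases, GAAA), starting 40 bases before the listed start, and a gamma-activated site, TTCNNNGAA, that overlaps its first bases. Of 32544 promoters of this length, 3.45% held the first pattern and 8.33% the second. Tlr3 held a κB pattern (GGG, any 2 bases, TTTCC) 211 bases before its listed start, present in 1.61% of promoters. The shorter pattern AAANNGAAA was added after the sequences had been seen. It was present in 10.5% of promoters. It lay 59 bases before the listed start of Tlr3 and 191 before that of Tlr2, both on the opposite strand. In Myd88 it lay inside the longer match. The Tlr3 match of this pattern thus lay downstream of the start of the counted transcript, and the κB match upstream of it. A match is a description of letters, not of a bound site.

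Depth was high and uneven. The pretreated libraries held 83907506 to 268463961 counts over the kept transcripts and the naive libraries 94402402 to 261020465. The members' counts per library ran from 562 for Cd14 at naive 0 h to 135620 for Tlr3 at pretreated 4 h. The lowest count corresponds to 4.01 RPKM (reads per kilobase of transcript, scaled to depth), with an exact 95% Poisson interval of 3.69 to 4.36 RPKM. It covers counting error only. Some libraries, mainly of the pretreated arm, stood apart from the others. H19, an imprinted noncoding RNA, was at 43.7 and 44.4 RPKM in the pretreated 1 and 4 h libraries, against 9.19 to 9.78 RPKM in the pretreated 0, 2 and 6 h libraries and 53.4 to 123 RPKM in the naive libraries. The ribosomal precursor Rn45s took 3.90% and 2.85% of counts in the pretreated 0 and 1 h libraries, against 0.974% to 1.51% in the other 8. The RNase MRP RNA Rmrp was at 76.0 and 30.6 RPKM in these 2 and at 21.9 RPKM in the naive 1 h library. It lay between 3.57 and 6.69 RPKM in the others. Calls that end and directions that turn without these pretreated libraries are given with the results or among the effects of processing. The pretreated 2 and 4 h libraries lie on different sides of the H19 difference. Tlr3, Myd88 and Tlr4 were lower in the 4 h library, and the part of that difference in these steps was not tested.

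The cells had the markers of fibroblasts, and those of the immune cells best known for these receptors were at or near 0. All 9 fibroblast markers passed the filter, with 2774 to 4973 RPKM for the collagen gene Col1a1. Of 11 macrophage markers 10 never exceeded 1 RPKM. Their summed level was 2.90 to 4.26 RPKM in pretreated libraries and 2.61 to 4.16 RPKM in naive libraries, most of it from Cd68, a lysosomal protein that is not confined to macrophages. Emr1, which encodes the macrophage surface antigen F4/80, had 0 counts in all 10 libraries, and Ptprc, the pan-leukocyte gene, did not exceed 0.00300 RPKM. None of 6 dendritic and 8 lymphocyte markers exceeded 1 RPKM. Of 5 endothelial and 5 epithelial markers, 2 and 1 passed the filter, and none of these 3, nor Cd68, passed any of the edgeR tests described below. Of the 9 fibroblast markers Dcn was higher and Thy1 and Fn1 were lower at 2, 4 and 6 h than at 0 h, against 19.9% of all genes higher and 20.0% lower. Fn1 was also lower in pretreated than in naive cells, as were 0.879% of all genes. Dcn stood at 45.3, 72.1, 54.4, 95.1 and 68.1 RPKM in pretreated cells from 0 to 6 h. In naive cells it stood at 78.6, 77.7, 86.0, 108 and 106 RPKM. Within the pretreated arm Dcn, Col1a1, Col1a2 and Col3a1 were highest in the 1 and 4 h libraries, those with high H19, and the other markers were not. The part of that library difference in the rise of Dcn was not tested.

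**Figure D1:**
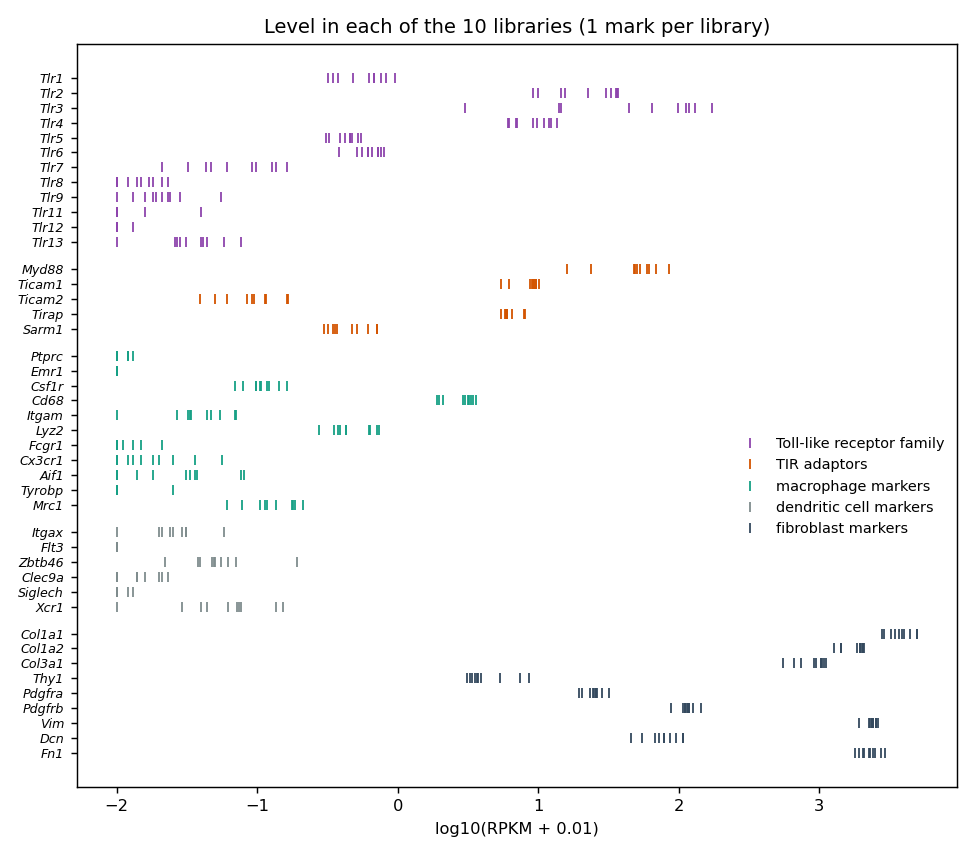
Level of the Toll-like receptor family, the TIR adaptors, macrophage, dendritic cell and fibroblast markers, as log10(RPKM + 0.01), with 1 mark per library and the 10 libraries of both arms. Tlr2, Tlr3 and Tlr4 stand apart from the other 9 receptors, which stayed at or under 1 RPKM, as did nearly all leukocyte markers.

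Of the 12 receptor genes in the table, only Tlr2, Tlr3 and Tlr4 passed the filter. The other 9 stayed at or under 1 RPKM in all 10 libraries. Tlr1, which pairs with TLR2, reached 0.939 RPKM at most, in the pretreated 2 h library, and Tlr6, which encodes another partner of TLR2, 0.783 RPKM. Tlr7 and Tlr9, endosomal receptors for single-stranded RNA and CpG DNA, reached 0.153 and 0.0450 RPKM. Among the 6 members, Myd88 had the highest level at 0 h in both arms, and Tlr3 had the highest at 4 and 6 h in both.

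**Figure D2:**
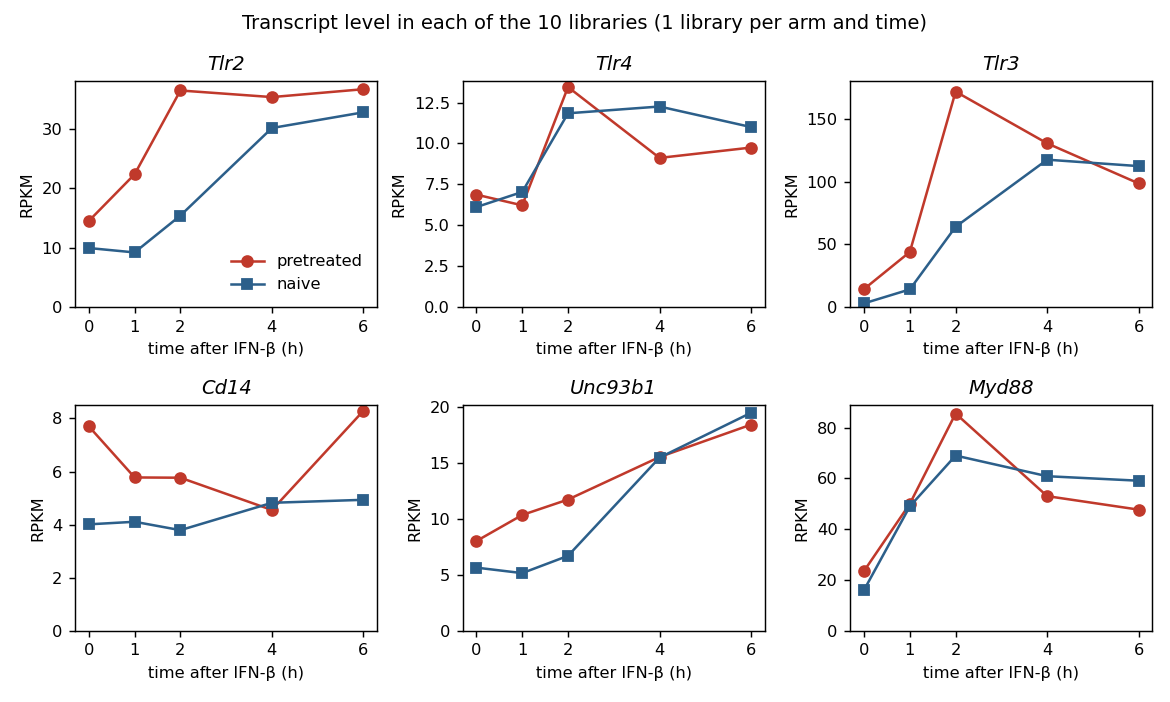
RPKM of the 6 genes against time after IFN-β in pretreated (red circles) and naive (blue squares) cells, 1 library per point. The Tlr3 curve of pretreated cells tops at 172 RPKM at 2 h and that of naive cells at 117 RPKM at 4 h, while Cd14 stays between 3.79 and 8.29 RPKM.

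Tlr3 (mm10 chr8:45395665-45410539, minus strand, 7 exons), the receptor for double-stranded RNA, had the widest range of the 6. In pretreated cells it stood at 14.4, 43.9, 172, 130 and 98.5 RPKM at 0, 1, 2, 4 and 6 h. In naive cells it stood at 2.98, 14.1, 64.0, 117 and 112 RPKM at the same times. It was thus the lowest of the 6 in naive cells at 0 h and the highest at 4 and 6 h. The pretreated library was the higher at 4 of 5 times, with RPKM ratios to naive of 4.83, 3.11, 2.68 and 1.11 in the order of time. The last ratio, that of the 6 h libraries, was 0.877, so that the order had turned. Its level in pretreated cells at 0 h was 12.2% of the highest naive level. The naive 6 h library was 37.8 times the naive 0 h library, and 71 genes had a larger log2 difference in that comparison. The pretreated 2 h library was 11.9 times the pretreated 0 h library, and 17 genes had a larger difference. In bulk RNA, more cells that express a gene and more RNA per cell cannot be told apart. The exons of Gm45542 cover 2.61% of the exonic bases of Tlr3 on the other strand, and the sources used here do not say whether counting used strand.

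Myd88 (chr9:119335988-119340040, minus strand, 6 exons), the shared adaptor, was also past 2-fold by 1 h and was the highest of the 6 at 0 h. It stood at 23.6, 50.0, 85.5, 53.0 and 47.7 RPKM in pretreated cells from 0 to 6 h. In naive cells it stood at 16.1, 49.0, 69.0, 60.8 and 59.1 RPKM. Both arms were at their highest at 2 h. By 1 h pretreated cells had covered 42.7% of the distance from 0 h to their highest level and naive cells 62.2%. For Tlr3 these shares were 18.8% in pretreated and 9.72% in naive cells. Pretreated cells had the higher level at 3 of 5 times. At 6 h they had the lower one, a log2 difference of -0.30, and 94.6% of the genes tested had a higher difference. All fold changes of single libraries here and below are on the log2(RPKM + 1) scale, which understates the change of low genes, unless called an RPKM ratio.

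Tlr2 (chr3:83836272-83841608, minus strand, 3 exons), the receptor for bacterial lipoproteins, was the only 1 of the 6 to be higher in pretreated cells at 5 of 5 times. Pretreated cells had 14.5, 22.4, 36.5, 35.4 and 36.7 RPKM from 0 to 6 h. Naive cells had 9.95, 9.21, 15.4, 30.2 and 32.8 RPKM. By 2 h the pretreated arm had covered 99.0% of the distance from 0 h to its highest level and the naive arm 23.9%. The arms were furthest apart at 1 and 2 h, with log2 differences of 1.196 and 1.19. The differences were 0.50 before stimulation and 0.22 and 0.16 at the last 2 times.

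Tlr4 (chr4:66827811-66842796, plus strand, 3 exons), the receptor for lipopolysaccharide, covered the narrowest range of the 3 receptors. It stood at 6.87, 6.22, 13.4, 9.12 and 9.75 RPKM in pretreated cells and at 6.11, 7.04, 11.8, 12.3 and 11.003 RPKM in naive cells. In both arms the 2, 4 and 6 h libraries lay above both 0 h libraries. The pretreated library was the higher at 2 of 5 times, and the largest log2 difference between the arms was -0.39, at 4 h. Its partner gene Ly96, which encodes the lipopolysaccharide-binding subunit MD-2, stood at 23.9 to 44.6 RPKM in pretreated and 20.0 to 42.0 RPKM in naive cells.

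Cd14 (chr18:36725067-36726654, minus strand, 2 exons), which encodes the co-receptor that passes lipopolysaccharide to TLR4, had no common course. It stood at 7.70, 5.78, 5.77, 4.55 and 8.29 RPKM in pretreated cells. In naive cells it stayed between 3.79 and 4.94 RPKM, with 4.01, 4.11, 3.79, 4.82 and 4.94 RPKM from 0 to 6 h. Pretreated cells were higher at 4 of 5 times, by 0.80 on the log2 scale at 0 h and 0.65 at 6 h. In that last pair of libraries 111 of the 12168 genes had a larger difference. The values within the pretreated arm do not follow time, the lowest being at 4 h, in 1 of the libraries with high H19, and the highest at 6 h. The part of that library difference in the Cd14 values was not tested.

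Unc93b1 (chr19:3935186-3949340, plus strand, 11 exons), the chaperone of the endosomal receptors, was highest at the last time sampled. It stood at 8.02, 10.3, 11.7, 15.5 and 18.4 RPKM in pretreated cells and at 5.64, 5.15, 6.69, 15.5 and 19.5 RPKM in naive cells. The arms lay within 0.08 of each other on the log2 scale at 4 and 6 h. At 1 h the pretreated library was 0.88 above the naive library, short of 2-fold on this scale, with an RPKM ratio of 2.01. The second RefSeq transcript of Unc93b1, counted with 10 exons, had a mean of 11.6 RPKM over the libraries, as did the one used, and the sources used here do not say how reads were shared between them. The ratio of Tlr3 to its chaperone was 1.79, 4.25, 14.6, 8.41 and 5.35 in pretreated cells from 0 to 6 h. In naive cells it was 0.528, 2.74, 9.56, 7.59 and 5.77. The ratio was thus highest at 2 h in both arms.

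**Figure D3:**
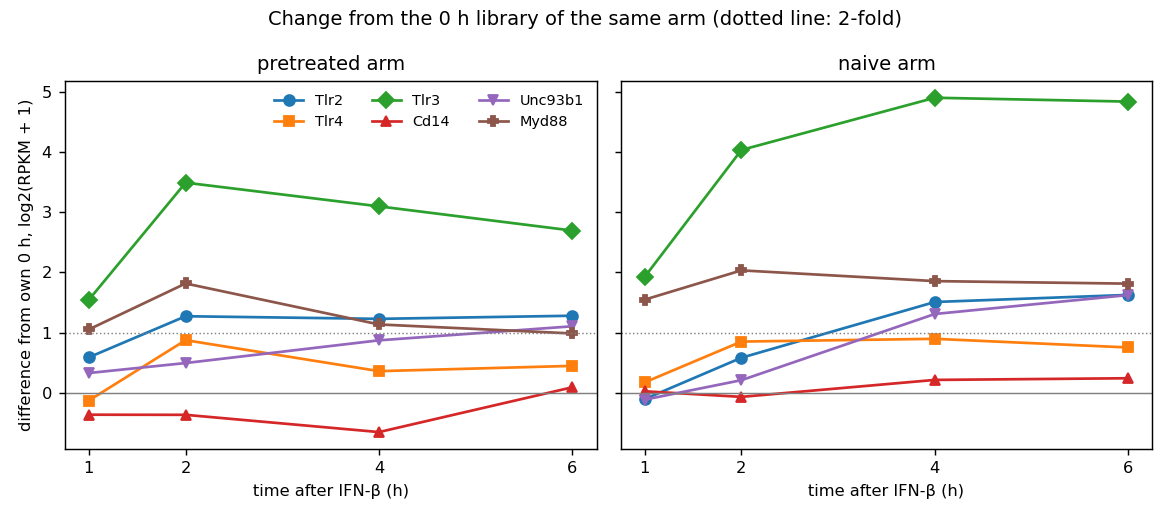
Difference of each gene from the 0 h library of its own arm on the log2(RPKM + 1) scale, against time, for pretreated cells (left) and naive cells (right), 1 library per point. Tlr3 lies above the other 5 at every time in both arms, and Tlr2 and Unc93b1 pass the 2-fold line in naive cells between 2 and 4 h.

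Within each arm, the comparisons with 0 h share the 0 h library, so its error enters all of them, and no p-value can be given. A fold of 2 or more above 0 h was seen at 1 h for Tlr3 and Myd88 in both arms, 2 of 6 members, against 1.31% of all genes in pretreated and 2.02% in naive cells. At 2 h Tlr2 joined them in pretreated cells (3 of 6, against 3.6% of genes), while in naive cells it was still these 2 (against 3.95%). At 4 h the same 3 were past 2-fold in pretreated cells (against 4.19%). In naive cells 4 were, Unc93b1 and Tlr2 included (against 5.71%). At 6 h the count was 3 in pretreated cells (Tlr2, Tlr3 and Unc93b1, against 3.15%) and 4 in naive cells (against 6.2%). Myd88 at pretreated 6 h, with a log2 difference of 0.99, lay just short of 2-fold on this scale, and with a pseudocount of 0.1 or TMM scaling it lay just past it. No member was 2-fold or more below 0 h at any time, as were 0.255%, 1.11%, 1.92% and 0.616% of genes in pretreated cells from 1 to 6 h and 0.181%, 1.27%, 3.19% and 3.7% in naive cells.

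Over both arms, the level at 2, 4 and 6 h was tested against 0 h on the counts with edgeR, with the 2 arms standing in for replicates. Of the 6 members 5 rose, against 19.9% of all genes that rose and 20.0% that fell. Tlr3 rose by 4.10 (log2, edgeR SE 0.61, adjusted p = 0.00552) and Myd88 by 1.71 (edgeR SE 0.20, adjusted p = 0.00498). Tlr2 rose by 1.41 (edgeR SE 0.27, adjusted p = 0.00962), Unc93b1 by 1.12 (edgeR SE 0.24, adjusted p = 0.0131) and Tlr4 by 0.85 (edgeR SE 0.14, adjusted p = 0.00699). Cd14 had a log2 change of -0.04 (edgeR SE 0.19, adjusted p = 0.893). The members' median was 1.26, against -0.01 over all genes tested. The p-values measure how far the arm difference varied between times, not spread between cultures. A change over time that differed between the arms thus counts as error. Without the naive 0 h library, which leaves 1 library at 0 h, none of the 6 passed, with edgeR adjusted p of 0.0571 for Tlr3 and Myd88, 0.0707 for Tlr4, 0.0709 for Tlr2 and 0.0989 for Unc93b1. In that fit 8 of the 12168 genes passed at all. Without the pretreated 0 h library Tlr3, Myd88 and Tlr4 passed, while Tlr2 (edgeR adjusted p = 0.0669) and Unc93b1 (0.0716) did not. Without both the pretreated 0 and 1 h libraries the same 3 passed, and Tlr2 (edgeR adjusted p = 0.0580) and Unc93b1 (0.0512) did not.

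At 1 h against 0 h over both arms, edgeR called 0 of 12168 genes (0.0% higher, 0.0% lower), with 1383 at an unadjusted p under 0.05, and so 0 of 6 members. Tlr3 had a log2 change of 1.83 (edgeR SE 0.58, adjusted p = 0.361) and Myd88 of 1.32 (edgeR SE 0.22, adjusted p = 0.253). DESeq2 called 236 genes, among them Myd88 (DESeq2 adjusted p = 1.16e-06) and no other member, and limma called 5, none of them a member. Values for the other 4 members lay between -0.21 (Cd14) and 0.28 (Tlr2), with SE of 0.17 to 0.31.

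**Figure D4:**
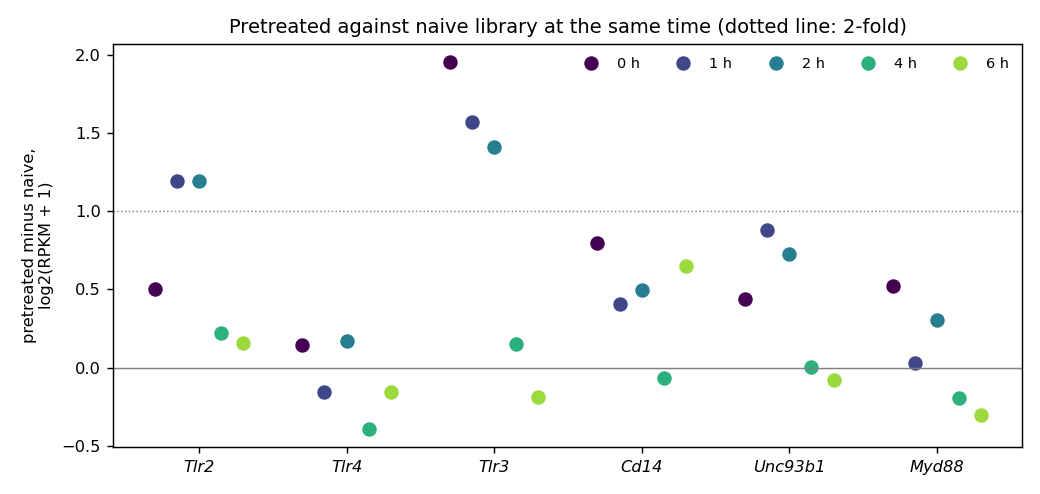
Pretreated minus naive difference on the log2(RPKM + 1) scale for each gene, with 1 point per time from 0 h (dark) to 6 h (light), each from a pair of single libraries. Tlr3 at 0, 1 and 2 h and Tlr2 at 1 and 2 h lie above the dotted 2-fold line, no point does at 4 or 6 h, and Tlr4 stays between -0.39 and 0.17.

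The arms differ in an earlier interferon exposure. The sources used here do not say whether that interferon was still present in pretreated cells at 0 h. Before stimulation Tlr3 was 2-fold or more higher in pretreated cells, with a log2 difference of 1.95, and the other 5 were higher by 0.15 (Tlr4) to 0.80 (Cd14). That is 1 of 6 members, against 2.56% of all genes. At 1 h Tlr2 and Tlr3 were past 2-fold (2 of 6, against 1.55% of genes), and at 2 h the same 2 were (against 1.55%). The last 2 times had 0 of 6, against 0.238% and 0.156% of genes. None was 2-fold or more lower at any time, against 0.838%, 0.814%, 0.953%, 0.131% and 0.214% of genes from 0 to 6 h. In the order of time the members' median difference was 0.51, 0.65, 0.61, -0.03 and -0.12, while that of all genes tested lay between -0.03 and 0.05.

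Averaged over the 5 times, no member passed the test between the arms in edgeR, in which 0.386% of all genes were higher and 0.879% lower. Its p-values too measure how far the arm difference varied between times. The Tlr3 difference went from 1.95 at 0 h to -0.19 at 6 h in the single libraries, and such a change counts as error here. Not passing therefore does not show that the arms were alike. Tlr3 had a log2 difference of 1.05 (edgeR SE 0.38, adjusted p = 0.175), Tlr2 of 0.68 (edgeR SE 0.20, adjusted p = 0.120) and Cd14 of 0.52 (edgeR SE 0.15, adjusted p = 0.115). Unc93b1 had one of 0.43 (edgeR SE 0.18, adjusted p = 0.217), Myd88 of 0.06 (edgeR SE 0.14, adjusted p = 0.832) and Tlr4 of -0.10 (edgeR SE 0.11, adjusted p = 0.610). DESeq2 called Tlr2 and Cd14 (DESeq2 adjusted p = 0.00350 and 0.0136) among 1371 genes, against 154 in edgeR. Without the pretreated 1 and 4 h libraries the difference of Cd14 was 0.75 (edgeR adjusted p = 0.105) and that of Myd88 0.17 (edgeR adjusted p = 0.664). Without the pretreated 0 and 1 h libraries that of Tlr3 was 0.44 (edgeR adjusted p = 0.667), that of Unc93b1 0.22 (edgeR adjusted p = 0.719), that of Tlr4 -0.16 (edgeR adjusted p = 0.687) and that of Myd88 -0.085 (edgeR adjusted p = 0.860).

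Whether the change after 0 h differed between the arms was tested with a term for arm by stimulation. The term sets the arm difference at 0 h, with 1 library per arm, against that of all later times pooled. It thus rests on the pretreated 0 h library, in which Rn45s took 3.90% of counts. In edgeR 0 of 12168 genes passed (0.0% higher, 0.0% lower), with 741 at an unadjusted p under 0.05, while DESeq2 called 133 and limma 15, none of them a member. The log2 change in pretreated cells minus that in naive cells was -1.54 for Tlr3 (edgeR SE 0.76, adjusted p = 0.853) and -0.61 for Myd88 (edgeR SE 0.28, adjusted p = 0.834). Neither passed, so the smaller fold of Tlr3 in pretreated cells is a description of these libraries. The other 4 had differences between -0.52 (Cd14) and 0.16 (Tlr2).

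**Figure D5:**
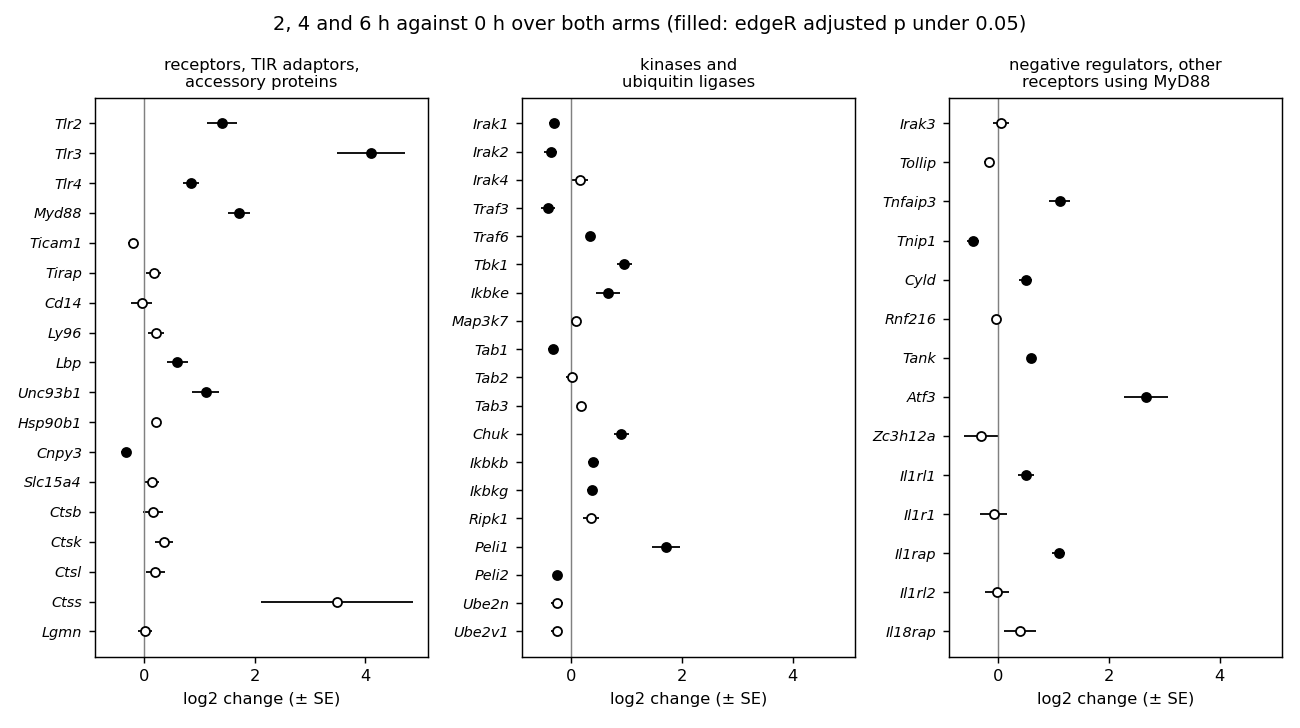
Log2 change at 2, 4 and 6 h against 0 h over both arms (± SE, edgeR) for every tested gene of the receptor, adaptor, accessory, kinase, negative regulator and MyD88-using receptor lists, with filled points for adjusted p under 0.05. Tlr3 (4.10) and Atf3 (2.66) have the largest changes that passed, and the change of Ctss (3.49) did not pass.

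By the same test of 2, 4 and 6 h against 0 h, some genes of the wider pathway rose and others fell. The lists below include members, Myd88 among the adaptors and Unc93b1 and Cd14 among the accessory genes. Each count below is to be read against the 19.9% of all genes that rose and the 20.0% that fell in this test, and the median against -0.01. The lists of genes were drawn up with earlier results of these data known. Of 3 TIR adaptors tested only Myd88 rose, with a median log2 change of 0.19. Ticam1, the adaptor of TLR3, had a log2 change of -0.19 (edgeR SE 0.09, adjusted p = 0.123) and Tirap, which bridges MyD88 to TLR2 and TLR4, of 0.19 (edgeR SE 0.14, adjusted p = 0.306). The ratio of Myd88 to Ticam1 in RPKM was 15.8 at 2 h and 2.35 at 0 h in pretreated cells. In naive cells it was 11.2 at 2 h and 1.76 at 0 h. Ticam1 itself was lowest at 2 h, at 5.42 RPKM in pretreated and 6.15 RPKM in naive cells, against 10.0 and 9.12 RPKM at 0 h. At 6 h the ratio was 5.09 in pretreated and 6.17 in naive cells. Of 12 accessory and trafficking genes tested, Unc93b1 and Lbp rose, Cnpy3 fell and 9 did not pass, with a median log2 change of 0.21, so neither share is above that of all genes. Lbp, a plasma protein that delivers lipopolysaccharide to CD14, rose by 0.60 (edgeR SE 0.19, adjusted p = 0.0415). Cnpy3, a folding chaperone for several of the receptors, fell by 0.32 (log2, edgeR SE 0.09, adjusted p = 0.0323). Ctss, a protease that acts in endosomes, reached 1.25 RPKM in pretreated and 2.26 RPKM in naive cells at 6 h and had a log2 change of 3.49 (edgeR SE 1.37, adjusted p = 0.0783).

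Of 19 kinases and ubiquitin ligases that act after the receptors 7 rose, 5 fell and 7 did not pass, against 19.9% of all genes that rose and 20.0% that fell, with a median log2 change of 0.17. Peli1, a ubiquitin ligase of the IRAK complexes, rose by 1.72 (edgeR SE 0.26, adjusted p = 0.00567) and stood at 44.2 RPKM at 2 h in pretreated and 25.6 RPKM in naive cells. Tbk1, the kinase that activates IRF3 downstream of TRIF, rose by 0.96 (edgeR SE 0.14, adjusted p = 0.00530), and Chuk, the IKKα gene, by 0.91 (edgeR SE 0.13, adjusted p = 0.00529). Irak1 and Irak2, kinases recruited by MyD88, fell by 0.31 and 0.36 in log2 terms, with SE of 0.08 and 0.12 and edgeR adjusted p of 0.0243 and 0.0475. Of 10 negative regulators 5 rose and 1 fell, against the same shares of all genes, with a median of 0.28. Il1rl1 is 1 of these 5 and is counted again below among the interleukin-1 family receptor genes. Atf3, a transcriptional repressor of inflammatory genes, rose by 2.66 (edgeR SE 0.40, adjusted p = 0.00556) and Tnfaip3, the ubiquitin-editing enzyme A20, by 1.11 (edgeR SE 0.20, adjusted p = 0.00757). Tnip1, which binds A20, was the 1 that fell, by 0.46 on the log2 scale. Of 5 interleukin-1 family receptor genes that signal through MyD88 2 rose, Il1rap by 1.09 (edgeR SE 0.11, adjusted p = 0.00498) and Il1rl1 by 0.51 (edgeR SE 0.14, adjusted p = 0.0283), with a median over the list of 0.40 and 19.9% of all genes rising. Against the naive arm over 5 times, 1 gene of all these lists passed, Peli2, which was lower in pretreated cells (-0.35, SE 0.06, edgeR adjusted p = 0.0448).

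The genes whose course over the 10 libraries was most like that of each member were taken by Pearson's r of log2(RPKM + 1), as a description. All values share the same arms, times and libraries, and each gene named is among the highest of 12168. Pearson's r does not take the size of a change into account. Gpatch2 covered only 3.90 to 5.32 RPKM and 2610507B11Rik 41.6 to 59.0 RPKM, while Oasl1 covered 0.0400 to 36.6 RPKM. For Tlr3 they were Oasl1 (0.993), Tcirg1 (0.990) and Gbp10 (0.989), of which Oasl1 and Gbp10 belong to interferon-induced families. For Myd88 they were Gpatch2 (0.989), Rnf19b (0.983) and Atf3 (0.981). For Tlr2 they were H2-M3 (0.991), Slc10a7 (0.984) and Oas1c (0.981), and for Unc93b1 Itm2b (0.991), Colec12 (0.990) and Cask (0.985). For Tlr4 they were 2610507B11Rik (0.982), Ido2 (0.968) and Gda (0.956). The nearest genes to Cd14 were less close, Pip4k2c (0.951), Sqstm1 (0.938) and Masp1 (0.938). Of the 18 genes, Atf3 alone is also on a list used here.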

How the data were processed

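Expression was measured by RNA sequencing in 10 libraries of MEFs, 1 per arm and time, grouped by the labels' titles. Bowtie, TopHat, Cufflinks 1.2.1 and the mm10 build are listed, per the submitters' processing notes, with no role or order. The authors deposited, per the file headers, tag counts per RefSeq transcript, unnormalised, and RPKM values. In 7630 genes above 5 RPKM everywhere the ratio of count to RPKM was constant within 0.000167 (log2) after 1 factor per library and 1 per gene. The sources used here do not say which tool counted the tags, nor how strand and multi-mapping reads were treated.

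Of 30646 rows, 15 without a symbol (0.0157% to 0.0193% of counts) were left out. For 4306 symbols with several rows the row with the highest mean RPKM was kept. Genes at 1 RPKM or more in at least 2 libraries were tested. Counts were fitted with edgeR 4.0.16 (quasi-likelihood, TMM) by time and arm (4 residual degrees of freedom), and with arm by stimulation (3). P-values are two-sided, Benjamini-Hochberg adjusted over 12168 genes, with a threshold of 0.05. The fitting code was also run on simulated counts with known changes. SE is the log2 change over the root of F. Single libraries were compared on log2(RPKM + 1) at a fold of 2, without p-values. DESeq2 1.42.0, limma 3.58.1, other scalings, filters and left-out libraries were alternatives. The members and lists were chosen with earlier results of these data known. Named genes are the members, the lists' genes and the 3 genes nearest each member by Pearson's r. The labels do not say whether libraries came from separate cultures.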

Additional observations from a re-analysis of the deposited data

How the results depend on the processing

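With 1 library per arm and time, no value has a replicate of its own group, and depth is not the limit. No paired analysis was possible because the labels give no replicate numbers, beyond the term for time that sets the arms against each other within each hour. The rise at 2 to 6 h kept its direction for Tlr2, Tlr3, Tlr4, Unc93b1 and Myd88 under all 17 alternatives. Leaving out each library in turn gave 8 to 4983 called genes at 2 to 6 h against 0 h, 2 to 175 for pretreated against naive (2 to 7 without any 1 library of the 0, 1, 2 or 6 h times), 0 to 24 at 1 h and 0 for arm by stimulation, which could not be fitted without a 0 h library. At 2 to 6 h the low counts were 8 without naive 0 h, 2075 without pretreated 0 h and 3222 without naive 6 h, and the 24 at 1 h was without pretreated 0 h. Without a filter the counts were 316 between the arms, 5 at 1 h and 28 for arm by stimulation. DESeq2 gave 1371, 236 and 133, and limma 5 at 1 h and 15 for arm by stimulation. Without the pretreated 1 and 4 h libraries 14 genes passed between the arms. Without the pretreated 0 and 1 h libraries, an alternative chosen after seeing the data, 2 passed between the arms, 3123 at 2 to 6 h and 22 at 1 h. With a pseudocount of 0.1 the genes 2-fold apart between pretreated and naive numbered 720, 473, 589, 84 and 117 from 0 to 6 h. From pretreated 0 h they numbered 376, 885, 1159 and 731, and from naive 0 h 485 and 999 at 1 and 2 h. The sign turned for results that had not passed. Leaving out libraries in turn, Myd88 between the arms ran from -0.062 to 0.18, Cd14 at 2 to 6 h from -0.28 to 0.24, and at 1 h Cd14 from -0.45 to 0.077, Tlr2 from -0.11 to 0.62, Tlr4 from -0.14 to 0.21 and Unc93b1 from -0.23 to 0.46. For arm by stimulation Tlr2 ran from -0.030 to 0.37 and Unc93b1 from -0.29 to 0.097. Without the pretreated 0 and 1 h libraries the values were -0.085 for Myd88 between the arms, 0.25 for Cd14 at 2 to 6 h and 0.046 at 1 h, -0.10 for Tlr2 and -0.12 for Unc93b1 at 1 h. Without the pretreated 1 and 4 h libraries they were 0.041 for Tlr4 between the arms, 0.10 for Cd14 at 2 to 6 h, and -0.060 for Tlr2 and -0.18 for Unc93b1 at 1 h. The cause was not tested.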
